A study of Homo sapiens with 6 samples.

Results

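The visual cycle and retinoid genes examined here are 9 genes of vitamin A handling, RPE65, RLBP1, LRAT, RDH5, RDH10, RDH11, STRA6, RGR and CRABP2. The choice was by name for their known roles, made with earlier results of these data known. They were read from a table of normalised counts of 37902 genes, in which 8 of the 9 had a row; STRA6 was not analysed here. The cells were ARPE-19, an established line of human origin that models the retinal pigment epithelium (RPE), the layer that feeds and recycles pigment for the photoreceptors. The study compared the parental line (wildtype, WT) with a POLDIP2 knockout line (POLDIP2 KO), with 3 libraries of each that the labels call biological replicates. POLDIP2 KO was made by transducing ARPE-19 with a lentivirus carrying SpCas9 and a guide RNA against the POLDIP2 coding sequence, followed by puromycin selection; isolation of a single clone is not described, and WT received no control virus that the sources used here mention. Both lines were kept under regular maintenance in DMEM with fetal bovine serum, were passaged before confluence and were sampled at day 3.

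Vision depends on 11-cis-retinal, the light-sensitive form of vitamin A that is bound to the opsins. In the RPE, LRAT stores retinol as retinyl ester, RPE65 turns the ester into 11-cis-retinol, and RDH5 with RDH11 oxidises this to 11-cis-retinal, which RLBP1 binds and protects. STRA6 is a receptor for the retinol carrier of the blood, and RGR is an opsin of the RPE. Outside the visual cycle, RDH10 takes the first step from retinol towards retinoic acid, and CRABP2 carries retinoic acid to its nuclear receptors.

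In these ARPE-19 libraries the RNA of the visual cycle and retinoid genes ranged from 0 to 10620.4 normalised counts, the highest value being that of RDH10. RPE65 and RGR were listed at 0 in all 6 libraries, RLBP1 and LRAT were low, RDH5 and CRABP2 were moderate, and RDH10 and RDH11 were abundant. Of the 6 measurable genes 0 passed the test between the lines, which 0.17% of all 14684 genes tested did. RDH11 and LRAT were lower in all 3 POLDIP2 KO libraries than in any WT library, by narrow margins, as were 5.44% of all genes tested.

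To show the regions upstream of the genes that these results turn on, the 250 bases before the transcription start are printed for the pair listed at 0 and for the pair whose lines did not overlap. They are RefSeq sequences of GRCh38.p14, written 5′ to 3′ on the strand of the gene, and capitals mark each CG dinucleotide (CpG), the site of DNA methylation in human promoters. The windows are chr1:68449955-68450204 (minus strand) for RPE65, chr10:84244803-84245052 (plus strand) for RGR, chr4:154743750-154743999 (plus strand) for LRAT and chr14:67695765-67696014 (minus strand) for RDH11. For LRAT and RGR the GENCODE gene model starts well upstream of the RefSeq start used for the window.
RPE65: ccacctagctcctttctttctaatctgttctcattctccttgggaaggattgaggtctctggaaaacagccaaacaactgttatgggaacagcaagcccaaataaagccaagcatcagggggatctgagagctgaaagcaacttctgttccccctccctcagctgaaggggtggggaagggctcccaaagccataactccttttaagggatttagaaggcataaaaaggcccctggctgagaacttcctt
RGR: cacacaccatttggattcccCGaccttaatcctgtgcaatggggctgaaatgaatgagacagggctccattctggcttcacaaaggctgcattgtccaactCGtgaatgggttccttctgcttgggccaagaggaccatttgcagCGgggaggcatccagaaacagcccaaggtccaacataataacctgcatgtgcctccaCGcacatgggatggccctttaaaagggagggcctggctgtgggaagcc
LRAT: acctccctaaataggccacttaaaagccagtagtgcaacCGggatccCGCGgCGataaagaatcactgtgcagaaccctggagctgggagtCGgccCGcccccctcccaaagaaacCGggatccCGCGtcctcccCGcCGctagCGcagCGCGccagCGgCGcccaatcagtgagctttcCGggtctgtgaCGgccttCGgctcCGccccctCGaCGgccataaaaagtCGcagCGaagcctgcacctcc
RDH11: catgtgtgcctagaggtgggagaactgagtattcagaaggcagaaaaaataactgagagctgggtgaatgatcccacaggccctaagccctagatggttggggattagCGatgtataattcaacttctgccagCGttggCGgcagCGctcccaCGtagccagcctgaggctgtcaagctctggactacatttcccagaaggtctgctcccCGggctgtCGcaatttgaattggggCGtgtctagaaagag

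The window of RPE65 held 0 CpG sites and that of RGR held 4, whereas LRAT had 24 and RDH11 had 8. Relative to the number that the base composition predicts, the CpG ratio was 0 for RPE65, 0.219 for RGR, 0.468 for RDH11 and 0.957 for LRAT. The median over the 35116 windows of all genes was 0.558, and the LRAT ratio was above that of 87.7% of them. Among the other members with a window, RDH5 had 2 CpG sites (ratio 0.098), RLBP1 had 8 (ratio 0.358) and CRABP2 had 18 (ratio 0.682). The order of the ratios was not that of the RNA levels: LRAT had the highest ratio and one of the lowest levels. No window was used for RDH10.

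Of the motifs searched on both strands, TATAAA was found in 0 of the 7 member windows, against 10.7% of all windows. GGGCGG, the core of the binding motif of SP1, was present in RLBP1 at 1 site and in LRAT at 2 sites (42.6% of all windows). CATGTG, an E-box of the kind that MITF binds, was present at 2 sites in RGR and at 1 site each in RLBP1 and RDH11 (9.42% of all windows). TAATCC, the core that OTX2 and CRX bind, was found at 1 site each in the same trio of windows (5.62% of all windows), and CACGTG in none of the 7 (6.34% of all windows). MITF and OTX2, transcription factors of the RPE, were themselves expressed in both lines, as described with the marker genes. A match is a run of letters only, and binding was not measured.

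For the series as a whole, the 6 libraries held 31532797 to 45795509 recovered reads. POLDIP2 itself was at 4515 ± 516 normalised counts in WT against 1151 ± 92.8 in POLDIP2 KO (SD, n = 3 libraries each, limma adjusted p = 0.00961), lower in the line labelled as the knockout. On the first principal component, with 30.9% of the variance, both libraries numbered 1 stood apart at 57.5 and 48.2, against -39.8 to -4.77 for the 4 others.

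RPE65 (ENSG00000116745, chromosome 1, 68428822 to 68449954) and RGR (ENSG00000148604, chromosome 10, 84230666 to 84259960) were listed at 0 in every WT and every POLDIP2 KO library. At this depth a count of 0 allows up to 3 reads, which the library scaling turns into 2.44 to 3.69 normalised counts; this covers counting error only. No fold change can be given for them. A listed 0 needs care in this table, because RXRB, a nuclear receptor that most cells express, was also at 0 in all 6 libraries and RPS18, a ribosomal protein gene, was at 0 in 5 of them and at 13.9 in POLDIP2 KO replicate 3. RXRB belongs to the receptor list below, and RPS18 was chosen after its values were seen. Why these genes were listed at 0, and whether the same holds for RPE65 and RGR, was not tested.

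RLBP1 (ENSG00000140522, chromosome 15, 89209869 to 89221614) encodes the retinal-binding protein of the RPE and was close to the limit of what can be compared. In replicates 1, 2 and 3, in that order here and below, WT had 30.2, 68.2 and 31.3 normalised counts and POLDIP2 KO had 19.7, 22.0 and 37.7, which rest on 16 to 68 reads per library. WT replicate 2 stood above the 5 others, and the lines overlapped. The mean was 43.3 ± 21.6 in WT and 26.5 ± 9.82 in POLDIP2 KO (SD, n = 3 libraries each). On the log2 scale POLDIP2 KO minus WT was -0.64 (95% confidence interval -1.74 to 0.46, limma adjusted p = 0.9998).

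LRAT (ENSG00000121207, chromosome 4, 154626945 to 154753120) encodes the enzyme that makes retinyl esters, the substrate of RPE65. WT had 105.8, 75.3 and 29.2 normalised counts and POLDIP2 KO had 22.1, 24.4 and 28.8. All POLDIP2 KO libraries were below all WT libraries, but WT replicate 3 and POLDIP2 KO replicate 3 were nearly level, with 28 and 29 reads and 95% exact Poisson intervals of 18.6 to 40.5 and 19.4 to 41.6 reads. The spread lay in WT, at 70.1 ± 38.5, while POLDIP2 KO was tight at 25.1 ± 3.38 (SD, n = 3 libraries each). The fitted log2 fold change was -1.27 (95% confidence interval -2.46 to -0.08), with an unadjusted limma p of 0.0397 and an adjusted p of 0.731. Between same-numbered libraries the log2 differences were -2.21, -1.58 and -0.02. Without WT replicate 1, the highest library, the log2 fold change was -0.89, and without both libraries numbered 1 it was -0.80.

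RDH5 (ENSG00000135437, chromosome 12, 55720367 to 55724705) encodes 11-cis-retinol dehydrogenase. Its normalised counts were 207.8, 265.9 and 321.6 in WT and 188.2, 245.8 and 247.2 in POLDIP2 KO. Each POLDIP2 KO library was below its same-numbered WT library, and the lines overlapped. The log2 differences of the 3 pairs were small, at -0.14, -0.11 and -0.38, and all 3 pairs were lower for 15.7% of all genes tested. The log2 fold change was -0.21 (95% confidence interval -0.74 to 0.32, limma adjusted p = 0.9998). RDH5 shares 2035 bases of exon on the same strand with ENSG00000258311, a protein-coding gene that was counted separately at a mean of 214.9 normalised counts, so the division of reads between them is uncertain. That overlapping gene was at 243 ± 37.5 in WT and 187 ± 64.8 in POLDIP2 KO (SD, n = 3 libraries each), and the log2 fold change was -0.42 (limma adjusted p = 0.9998).

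RDH11 (ENSG00000072042, chromosome 14, 67676800 to 67695793) encodes a retinal reductase and retinol dehydrogenase of the endoplasmic reticulum that is active on both cis and trans forms. WT had 3288.5, 5021 and 4305 normalised counts and POLDIP2 KO had 2882, 3085 and 3264. All 3 POLDIP2 KO libraries lay below the lowest WT library, WT replicate 1, from which the highest POLDIP2 KO library differed little. The mean was 4205 ± 870.5 in WT and 3077 ± 191 in POLDIP2 KO (SD, n = 3 libraries each), 0.742 times WT on the log scale (95% confidence interval 0.568 to 0.970). The log2 fold change was -0.43 (95% confidence interval -0.82 to -0.04), with an unadjusted limma p of 0.0337 and an adjusted p of 0.687. The pairs differed by -0.19, -0.70 and -0.40 on the log2 scale. Blocking on the replicate number narrowed the interval to -0.73 to -0.13, at a limma adjusted p of 0.272. Without WT replicate 2, the highest library, the log2 fold change was -0.29. RDH11 shares 346 bases of exon on the same strand with ENSG00000258466, which had 4.72, 5.02 and 1.04 normalised counts in WT against 107, 159 and 5.96 in POLDIP2 KO (limma adjusted p = 0.584, DESeq2 adjusted p = 0.00266). Its levels were small beside those of RDH11, and whether reads passed from one to the other was not tested.

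RDH10 (ENSG00000121039, chromosome 8, 73294602 to 73325281) encodes the main retinol dehydrogenase of retinoic acid synthesis. Its normalised counts were 9656, 3518 and 4160 in WT and 10620.4, 4941 and 6746 in POLDIP2 KO. Both libraries numbered 1 were far above the 4 others, and within each pair POLDIP2 KO was the higher, by 0.14, 0.49 and 0.70 on the log2 scale. All 3 pairs were higher for 17% of all genes tested. The log2 fold change was 0.44, with a 95% confidence interval of -0.56 to 1.45 (limma adjusted p = 0.9998) that narrowed to 0.13 to 0.75 with the replicate number as a block (limma adjusted p = 0.276). On the recovered reads DESeq2 with the block gave an adjusted p of 0.0458, which 3.82% of all genes pass at 0.05, with a fold change under the threshold of 1.5; DESeq2 without it gave 0.9998.

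CRABP2 (ENSG00000143320, chromosome 1, 156699606 to 156705816) encodes the retinoic acid carrier that works with the receptor RARA. WT had 128.5, 113.4 and 160.8 normalised counts and POLDIP2 KO had 68.9, 153.0 and 97.3. POLDIP2 KO was lower in pairs 1 and 3 and higher in pair 2, and the lines overlapped. The log2 fold change was -0.39 (95% confidence interval -1.18 to 0.39, limma adjusted p = 0.9998).

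**Figure D1:**
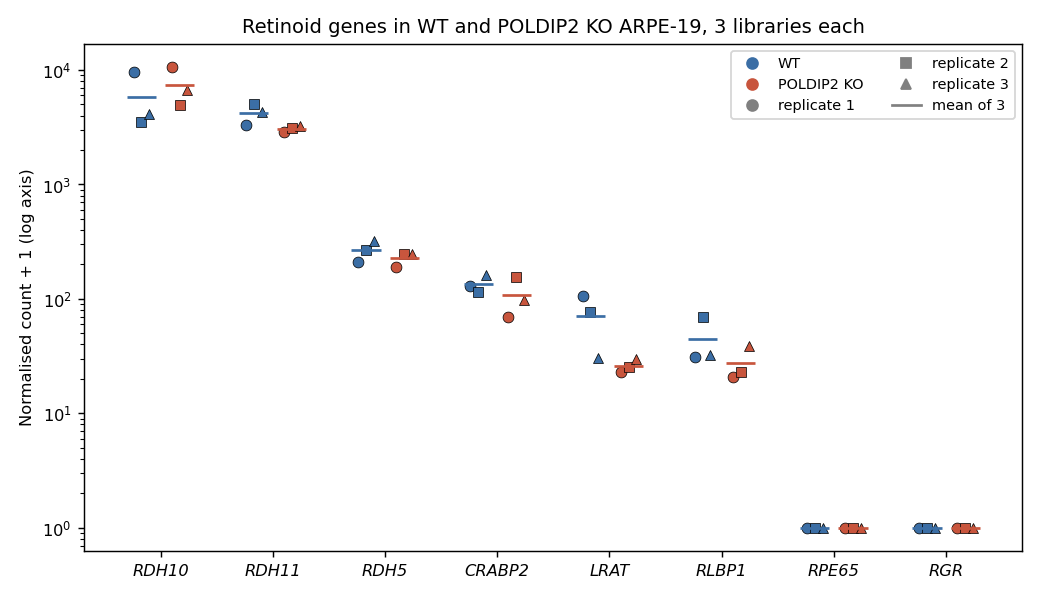
Normalised count + 1 (log y axis) of the 8 members with a row, in WT (blue) and POLDIP2 KO (red); each symbol is 1 library, its shape gives the replicate number and the line is the mean of 3. RPE65 and RGR are listed at 0 in all 6 libraries, and RDH10 reaches 10620.4.

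Of the 6 members tested, 0 were called at a limma adjusted p under 0.05 and a fold change over 1.5, against 0.17% of all 14684 genes tested. At an unadjusted limma p under 0.05 there were 2 members, RDH11 and LRAT, both lower, against 6.48% of all genes. The same 2 of 6 had lines that did not overlap, against 10.9% of all genes (5.44% with POLDIP2 KO lower). The log2 fold change was below 0 for 5 members and above 0 for RDH10, with a median of -0.41 over the 6 and of -0.00029 over all genes tested. The smallest p that an exact two-sided permutation test can reach with 3 libraries per line is 0.1, its value for RDH11 and LRAT; it was 0.3 for RLBP1, 0.4 for RDH5 and CRABP2 and 0.5 for RDH10. The intervals of LRAT, RLBP1, RDH10, RDH5, RDH11 and CRABP2 all include a change of more than 1.5-fold, so these data do not settle whether a difference of that size is present.

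**Figure D2:**
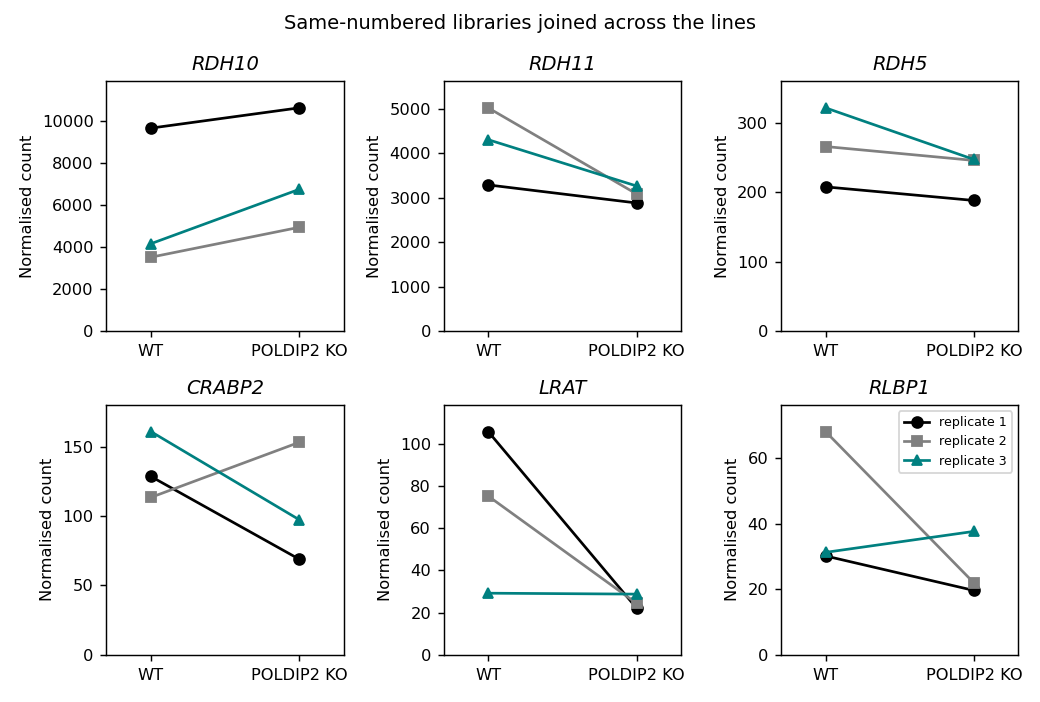
Normalised counts (y axis, from 0) of the 6 measurable members, with same-numbered WT and POLDIP2 KO libraries joined by a line. RDH11, LRAT and RDH5 slope down in all 3 pairs, RDH10 slopes up in all 3, and RLBP1 and CRABP2 have pairs in both directions.

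Compared per kb of exon, which is the scale on which genes can be set beside each other, RDH10 led with a mean of 1239 normalised counts per kb over the 6 libraries and RDH11 followed with 662. CRABP2 had 111, RDH5 82.5, RLBP1 18.9 and LRAT 6.32 normalised counts per kb. In WT, RDH10 was at 1084 ± 633 and RDH11 at 765 ± 158 normalised counts per kb (SD, n = 3 libraries), so these neighbours did not differ beyond their spread. The same held for CRABP2 at 124 ± 22.4 and RDH5 at 88.9 ± 19.1 normalised counts per kb, taking 1 SD on each side of each mean. With the longest transcript in place of all exons, RDH5 at 173 normalised counts per kb moved ahead of CRABP2 at 116. RLBP1 at 23.4 ± 11.7 and LRAT at 9.30 ± 5.12 normalised counts per kb were neighbours in WT within their spread as well, whereas in POLDIP2 KO, at 14.3 ± 5.32 and 3.33 ± 0.449 (SD, n = 3 libraries), they were apart by more.

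The replicate number, with 3 levels, held a larger share of the variation than the line, with 2 levels, in some members. A factor with more levels takes a larger share even where it has no effect. For RDH10, 82.5% of the sum of squares of the log2 values lay with the replicate number and 13.7% with the line, and for RDH5 the shares were 75.9% and 18.3%. In RDH11 and LRAT the line held the larger share, 57.3% and 56.8%, against medians of 11% for the line and 52.0% for the replicate number over all genes tested. Both libraries numbered 1 were above the 4 others in RDH10, as in 15.8% of all genes, and below them in RDH5, as in 15.1%. Replicate 1 of RDH10 was 2.52 times the geometric mean of the other WT libraries and 1.84 times that of the other POLDIP2 KO libraries, on the count + 1. FN1, the fibronectin gene of the mesenchymal marker list, moved with it, at 78077, 21007 and 25817 normalised counts in WT, and 95744, 30298 and 34562 for POLDIP2 KO. The part of this difference between replicates in the RDH10 values was not tested.

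**Figure D3:**
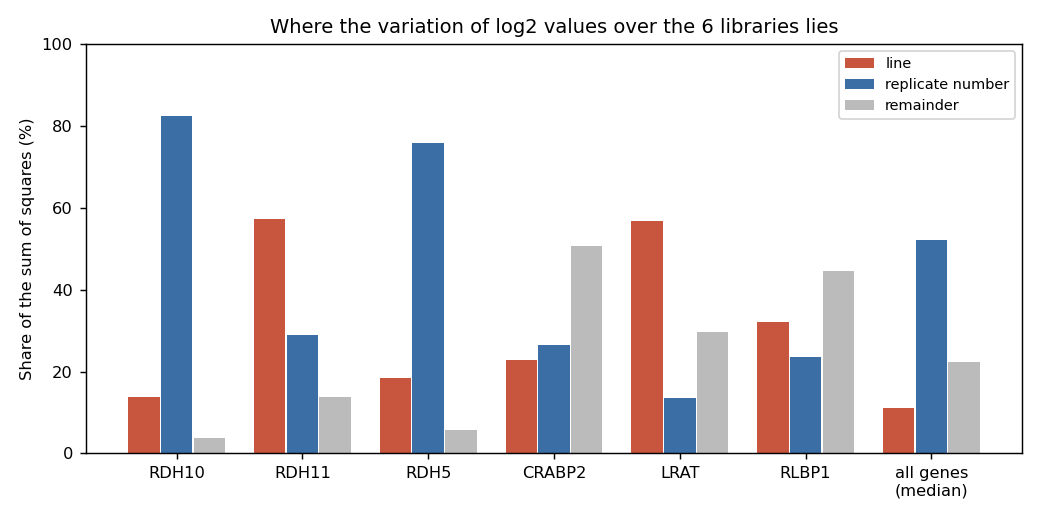
Share of the sum of squares of the log2 values (y axis, percent) that lies with the line (red), the replicate number (blue) and the remainder (grey) for each member, beside the median over all genes tested. RDH10 and RDH5 vary mostly by replicate number, RDH11 and LRAT mostly by line.

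The genes whose pattern over the 6 libraries was most like that of each member were found by Pearson's r of the log2 values, as a description over libraries that share their line and replicate number. RDH10 was most like FARP1 (r = 0.998), DKK1 (r = 0.998) and MBOAT2 (r = 0.992), all of which were highest in both libraries numbered 1. RDH11 was most like NRBF2 (r = 0.996), C11orf80 (r = 0.995) and SLC26A6 (r = 0.990). LRAT was most like ARMH4 (r = 0.995), MATCAP1 (r = 0.989) and VAMP4 (r = 0.985), which were highest in WT replicate 1. RDH5 was most like PGAP1 (r = 0.991), ELOF1 (r = 0.989) and TIMM10 (r = 0.987), RLBP1 like TMEM41B (r = 0.974), TOM1L1 (r = 0.973) and EEF1A2 (r = 0.969), and CRABP2 like TTPA (r = 0.981), EBNA1BP2 (r = 0.981) and SNRPEP4 (r = 0.979). With 14684 genes and 6 libraries, values of this size occur for many genes.

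Around the members, 54 further genes of retinoid handling were listed, of which 50 had a row, 12 were at 0 in every library, 1 was at or under 3 reads, 11 had a mean under 10 and 26 were tested. Of these 26, 0 passed the limma thresholds (0.17% of all genes tested), with 14 above and 12 below 0 and a median log2 fold change of 0.04. An unadjusted limma p under 0.05 was reached by 4 of the 26 (6.48% of all genes). The lines did not overlap for 4 of the 26 (10.9% of all genes), RARRES1 and PLAAT4 with POLDIP2 KO higher and RBP7 and TGM2 with it lower.

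Retinol carriers had 4 of 8 genes at 0 (RBP2, RBP4, TTR and LRP2) and 4 tested, all with a log2 fold change below 0. RBP7, a cellular retinol-binding protein, had 279.6, 347 and 290.3 normalised counts in WT against 119, 186 and 165 in POLDIP2 KO. The lines were well apart, and the log2 fold change was -0.98 (95% confidence interval -1.50 to -0.45, limma adjusted p = 0.253; DESeq2 adjusted p = 0.0205). SCARB1, a lipoprotein receptor that takes up carotenoids, was at 1004 ± 106 in WT and 981 ± 54.3 in POLDIP2 KO (SD, n = 3 libraries each).

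The carotenoid-cleaving enzymes differed in level, with BCO2 at a mean of 108 and BCO1 at 4.27 normalised counts per kb. BCO2 was at 899 ± 330 normalised counts in WT against 561 ± 191 in POLDIP2 KO (SD, n = 3 libraries each) and was lower in all 3 pairs, and the log2 fold change was -0.68 (95% confidence interval -1.44 to 0.09, limma adjusted p = 0.853). Blocking on the replicate number narrowed the interval to -1.03 to -0.33 (limma adjusted p = 0.155), and BCO2 passed both thresholds in DESeq2 with the block (adjusted p = 0.0131) but not without it (adjusted p = 0.663). Of the retinyl ester enzymes beside LRAT, the hydrolase PNPLA4 was tested, at 467 ± 80.4 in WT and 428 ± 67.7 in POLDIP2 KO (SD, n = 3 libraries each), while AWAT2 and LPL had means under 10.

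Among the other retinol and retinal oxidoreductases, 5 of 11 were tested and 2 were at 0. DHRS3, which reduces retinal back to retinol, was the highest per length at 819 normalised counts per kb, between RDH10 and RDH11, with 2585 ± 386 normalised counts in WT against 3169 ± 845 in POLDIP2 KO (SD, n = 3 libraries each, log2 fold change 0.27, limma adjusted p = 0.9998). RDH14 was level, at 903 ± 126 and 922 ± 119 (SD, n = 3 libraries each). AKR1C3, an aldo-keto reductase, ranged from 180 to 1264 in WT and from 160 to 810.2 in POLDIP2 KO, with the lowest value of each line in replicate 1.

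Of the 4 listed enzymes of retinoic acid synthesis 1 was tested, ALDH1A3, at a mean of 2004 normalised counts per kb; ALDH1A1, ALDH1A2 and ALDH8A1 had means under 10. ALDH1A3 had 16262, 7546 and 6077 normalised counts in WT against 20125, 6132 and 8006 in POLDIP2 KO. As with RDH10, both libraries numbered 1 were the highest, and the log2 fold change was 0.14 (95% confidence interval -1.09 to 1.36, limma adjusted p = 0.9998). For retinoic acid breakdown, CYP26B1 was at 880 ± 133 in WT and 908 ± 152 in POLDIP2 KO (SD, n = 3 libraries each), CYP26A1 had a mean under 10 and CYP26C1 was at or under 3 reads in every library. FABP5, which can carry retinoic acid, was at 1530 ± 431 and 1692 ± 499 (SD, n = 3 libraries each), and CRABP1 was listed at 0.

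The receptors RARA, RARB, RARG and RXRA were tested and 0 of the 4 were called (0.17% of all genes tested). RARB, itself a target of retinoic acid in many cells, was at 2237 ± 230 in WT and 2539 ± 140.4 in POLDIP2 KO (SD, n = 3 libraries each) and was higher in all 3 pairs, and the log2 fold change was 0.19 (95% confidence interval -0.08 to 0.46, limma adjusted p = 0.981). RARA was at 1774 ± 340.5 and 1778 ± 558, and RARG at 733 ± 122 and 809.8 ± 176 (SD, n = 3 libraries each).

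Of 6 retinoic acid responsive genes, 5 were tested, 0 were called by limma (0.17% of all genes tested), and the larger differences went in both directions. RARRES1, named for its response to retinoids, had 114, 88.3 and 109.6 normalised counts in WT against 489.6, 275 and 329 in POLDIP2 KO. The lowest POLDIP2 KO library was above the highest WT library by a wide margin, and the log2 fold change was 1.76 (95% confidence interval 1.15 to 2.38, limma adjusted p = 0.0806, DESeq2 adjusted p = 1.71e-06). DESeq2 on the recovered reads called RARRES1, RBP7 and TGM2 of the pathway genes tested, and 1.69% of all genes. RARRES1 and RBP7 stand in gene lists that the study chose on these samples, so their values are not independent of that choice. PLAAT4 was at 69.9 ± 20.5 in WT and 142 ± 36.4 in POLDIP2 KO (SD, n = 3 libraries each, log2 fold change 1.02, limma adjusted p = 0.547). TGM2, a transglutaminase, had 4963, 7839 and 5384 normalised counts in WT against 3066, 3704 and 1627 in POLDIP2 KO, and the log2 fold change was -1.17 (95% confidence interval -1.93 to -0.41, limma adjusted p = 0.393, DESeq2 adjusted p = 0.0253). RARRES2, the gene of chemerin, had the highest level of the list at 6371 normalised counts per kb, with a log2 fold change of 0.28, and NRIP1, a corepressor, was at 4152 ± 635 in WT and 4702 ± 626 in POLDIP2 KO (SD, n = 3 libraries each).

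**Figure D4:**
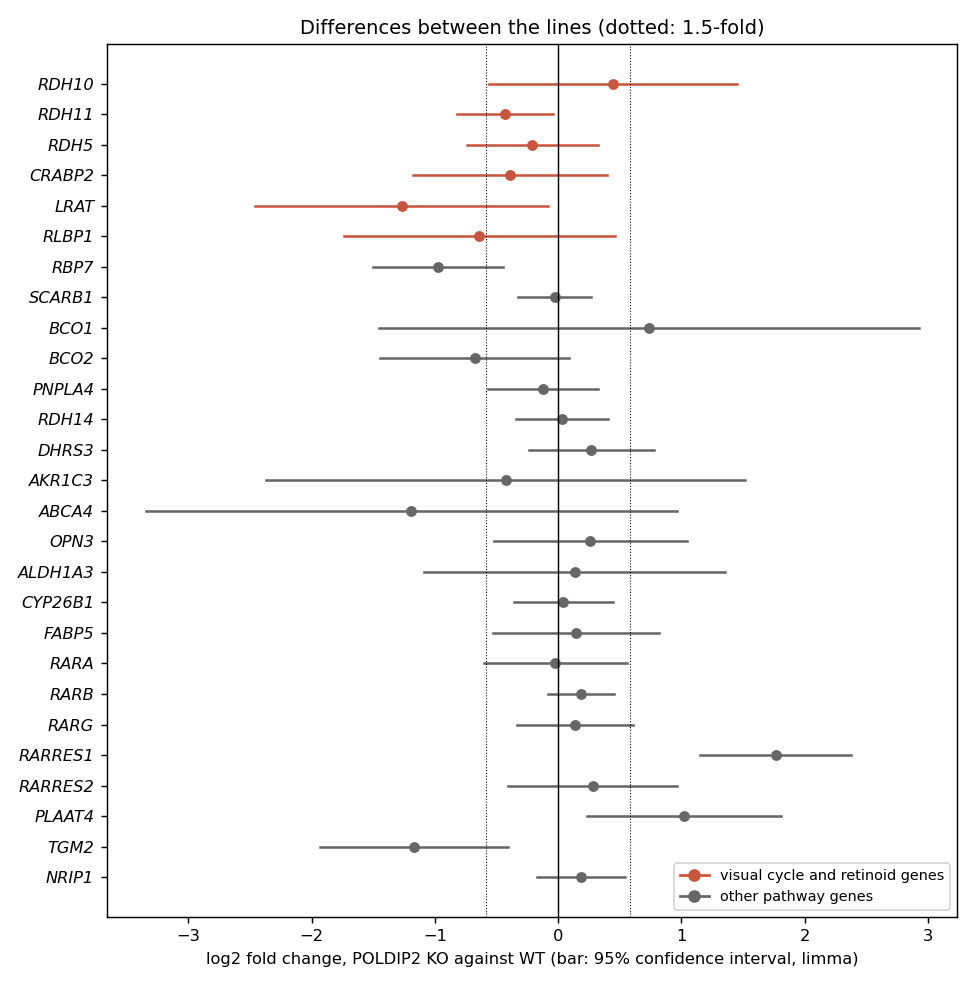
log2 fold change of POLDIP2 KO against WT (x axis) with its 95% confidence interval from limma, for the 6 measurable members (red) and other retinoid pathway genes (grey); dotted lines mark 1.5-fold. RDH11 and LRAT are the only members whose interval does not reach 0, and RARRES1 at 1.76 lies farthest to the right.

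On the photoreceptor side, RBP3, the retinoid carrier between the RPE and the photoreceptors, was listed at 0, and ABCA4, the retinal transporter, had 92.6, 20.1 and 6.26 normalised counts in WT against 11.1, 7.33 and 10.9 in POLDIP2 KO. The WT value rested on replicate 1, and without that library the log2 fold change moved from -1.19 to -0.22. OPN3, an opsin expressed outside the eye as well, was at 1126 ± 337 in WT and 1380 ± 552 in POLDIP2 KO (SD, n = 3 libraries each), while RRH, the RPE opsin peropsin, had a mean under 10.

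The label of RPE cells was compared with marker genes. Of 13 RPE markers 11 were tested and 0 were called (0.17% of all genes tested, here and for the marker lists that follow). OTX2 was at 762 ± 110.0 in WT and 631 ± 54.1 in POLDIP2 KO, and MITF at 3831 ± 501 and 3892 ± 824 (SD, n = 3 libraries each), while the pigment gene TYR had at most 2.98 normalised counts in any library and CLDN19 at most 4.72. SERPINF1, the gene of the secreted factor PEDF, did not overlap between the lines, at 126 ± 36.0 in WT and 74.9 ± 25.6 in POLDIP2 KO (SD, n = 3 libraries each, limma adjusted p = 0.822). The margin was narrow, with WT replicate 1 at 103.0 and POLDIP2 KO replicate 1 at 100.9 normalised counts. Lines did not overlap for 10.9% of all genes tested, a share that applies also to PDE6B and S100A4 below. Of 8 photoreceptor markers 3 were at 0 (GNAT1, ARR3 and OPN1SW) and 0 were called, although PDE6B did not overlap (363 ± 52.5 in WT and 261 ± 24.8 in POLDIP2 KO, SD, n = 3 libraries each), of 3 melanocyte markers 0 reached the mean of 10 and SOX10 was at 0, and of 4 Müller glia markers GLUL alone was tested, with SLC1A3 and AQP4 at 0. All 8 fibroblast and mesenchymal markers were tested, 8 had a log2 fold change above 0 (7334 of all 14684 genes tested) and 0 were called. COL1A2 reached the mean of 10 through POLDIP2 KO replicate 1 alone, at 614 normalised counts. Replicates 2 and 3 of that line had 0 and 1.99, and the WT mean was 4.17. ACTA2, VIM and PDGFRB had small log2 fold changes of 0.03, 0.11 and 0.14. The number of the 8 markers above 0 was 7 after quantile normalisation and without WT replicate 2 or WT replicate 3. It was 6 without both libraries numbered 1, and 3 without POLDIP2 KO replicate 1. With the replicate block COL1A1, a collagen gene, was called by limma (log2 fold change 1.49, adjusted p = 0.0436). S100A4 did not overlap between the lines, at 194 ± 24.2 in WT and 251 ± 32.9 in POLDIP2 KO (SD, n = 3 libraries each, limma adjusted p = 0.915). The summed normalised counts of the 8 were 165850 to 289948 in WT and 180489 to 346761 in POLDIP2 KO. The part of these markers in the member values was not tested, and in bulk RNA fewer cells of a type and less RNA per cell cannot be told apart.

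Without both libraries numbered 1 the log2 fold changes of the members were -0.67 for RLBP1, -0.80 for LRAT, -0.25 for RDH5, 0.59 for RDH10, -0.55 for RDH11 and -0.14 for CRABP2, and 0 of the 6 were called by limma. In that fit 4 of all 14684 genes tested had a limma adjusted p under 0.05.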

How the data were processed

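Polyadenylated RNA of 3 WT and 3 POLDIP2 KO libraries was sequenced from a stranded kit. The authors quantified reads with Salmon 1.8, summed them to genes on GRCh38 and divided by DESeq2 1.34.0 size factors; the annotation release is not given in the sources used here. The deposited signal is this normalised count, and 0 columns were left out. Symbols, positions and exon lengths came from GENCODE 44, which named 34152 of 37902 genes.

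POLDIP2 KO and WT were compared with limma 3.58.1 (R 4.3.3, eBayes with trend) on the log2 of the normalised count + 1. Genes needed a mean of 10 or more, with Benjamini-Hochberg adjustment over all genes tested. Fold changes are on this scale, which understates low genes. Thresholds were an adjusted p of 0.05 and a fold change of 1.5. The steps were tested on simulated data.

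Reads were recovered by dividing each library by its step of 1 read (tolerance 0.001). The step is close to 1 for POLDIP2 KO replicate 3 and for WT replicate 2, so whole values say little there. edgeR 4.0.16 and DESeq2 1.42.0 tests on these reads were chosen after seeing the data. edgeR called 17 genes and DESeq2 called 248. All values were whole (100%).

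Libraries numbered 1 deviated together over genes (r = 0.315). For the same-numbered pairs 2 and 3 r was 0.137 and 0.129, while other pairings gave -0.259 to 0.147. The highest of these joined WT replicate 3 with POLDIP2 KO replicate 2. An alternative blocked on the number, although only number 1 was set apart by these values. Other alternatives were the pseudocount, the filter, quantile normalisation, eBayes without trend, the longest transcript, and leaving out libraries.

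The members and lists were chosen with earlier results of these data known. Named genes were all members, POLDIP2, up to 3 genes per pathway list by level per kb, tested pathway genes whose lines did not overlap, and the 3 genes most like each member; marker genes and genes listed at 0 were named after their values were seen. Of the pathway lists, 2 genes are counted but not reported here on their own. Python 3.11.15, pandas 2.3.3, scipy 1.17.1 and matplotlib 3.10.9 were used.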

Additional observations from a re-analysis of the deposited data

How the results depend on the processing

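Under every alternative 0 members were called, against 0.17% of all genes tested in limma with all 6 libraries. Limma called no gene at all without WT replicate 2, WT replicate 3, POLDIP2 KO replicate 2 or POLDIP2 KO replicate 3. For those fits 0 members called therefore says nothing about the members. RLBP1, LRAT, RDH5, RDH11 and CRABP2 kept a log2 fold change below 0 and RDH10 one above 0 wherever they were tested. A mean of at least 50 left 4 members. Leaving out 1 library moved the log2 fold change between -0.92 and -0.27 for RLBP1, -1.80 and -0.89 for LRAT, -0.37 and -0.06 for RDH5, 0.15 and 0.89 for RDH10, -0.60 and -0.29 for RDH11, and -0.69 and -0.12 for CRABP2. In limma the replicate block, with the pairing by number, left 17 genes called higher and 13 lower among all genes and changed no call of a member or a named pathway gene, while among the markers COL1A1 became a call (adjusted p = 0.0436). In DESeq2 the block made BCO2 a call (adjusted p = 0.0131) and gave RDH10 an adjusted p of 0.0458 without passing the fold threshold.

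Over all genes, limma called 12 higher and 13 lower. Leaving out 1 library gave 0 to 3 higher and 0 to 2 lower. Where no gene was called, 701 to 905 genes had an unadjusted limma p under 0.05. These were the fits without WT replicate 2, WT replicate 3, POLDIP2 KO replicate 2 or POLDIP2 KO replicate 3, and in them POLDIP2 itself lost its call (limma adjusted p up to 0.0886). Without both libraries numbered 1 there were 2 higher and 2 lower, a mean of at least 50 gave 6 lower, edgeR gave 8 lower, DESeq2 gave 111 higher and 137 lower, and DESeq2 with the replicate block 184 higher and 208 lower. The cause was not tested. With the longest transcript the level of RDH5 was 173 and that of RDH11 902 normalised counts per kb.

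Among pathway genes near 0, the log2 fold change of RARA was 0.0016 with edgeR and 0.0034 with DESeq2, against -0.02 with limma. Leaving out 1 library gave ranges that crossed 0 for AKR1C3 (-1.21 to 0.23), ALDH1A3 (-0.37 to 0.56), CYP26B1 (-0.091 to 0.16), FABP5 (-0.092 to 0.38), OPN3 (-0.037 to 0.54), PNPLA4 (-0.24 to 0.013), RARA (-0.26 to 0.16), RARG (-0.035 to 0.25), RARRES2 (-0.0098 to 0.49), RDH14 (-0.078 to 0.13) and SCARB1 (-0.12 to 0.023). RLBP1 and LRAT rested on 16 to 112 reads per library, but their WT libraries differed by more than counting error. LRAT had 112 reads in WT replicate 1 (exact Poisson interval 92.2 to 134.8) and 28 in WT replicate 3 (18.6 to 40.5). RLBP1 had 68 reads in WT replicate 2 (52.8 to 86.2) and 32 in WT replicate 1 (21.9 to 45.2). In POLDIP2 KO the intervals of LRAT overlapped. The number of 3 libraries per line limits every member.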
